A study of Mus musculus with 20 samples.

Results

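The Hoxc cluster is 1 of the 4 groups of homeobox genes of the mouse genome. It was examined here as a window of 140 kb on chromosome 15, from 102740001 to 102880000 (mm9), which runs from Hoxc13 to Hoxc4. Its members were the peaks of 4 histone modifications that overlap this window by at least 1 bp, and they numbered 208 of the 218887 peaks placed on chromosomes in all lists together. The 9 member genes are Hoxc4, Hoxc5, Hoxc6, Hoxc8, Hoxc9, Hoxc10, Hoxc11, Hoxc12 and Hoxc13.

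The peaks came from chromatin immunoprecipitation and sequencing (ChIP-seq) of hematopoietic stem cells (HSCs) of B6129SF1 mice, for which the labels name no mutation or treatment. The fetal group was sorted from liver at embryonic day 14.5 and the adult group from bone marrow at 6 to 8 weeks of age. Both were gated as lineage-negative, Sca1+, cKit+ and CD135-, with 50000 cells per ChIP, and the labels do not say how many animals were pooled. Each mark had 2 replicates per stage and 1 deposited peak list, titled as combined, so no value below has a replicate error and no test between stages was made. The single replicates were not analysed here.

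Gene positions on mm9 were not used here. Peaks are therefore given by position, the place of single genes within the window is not given, and the sorted cells were not checked against marker genes. In the RefSeq gene table (GRCm38.p6, used for gene order only) all 9 members were found, in the order Hoxc13, Hoxc12, Hoxc11, Hoxc10, Hoxc9, Hoxc8, Hoxc6, Hoxc5 and Hoxc4. Hotair, a long noncoding RNA gene, lies between Hoxc12 and Hoxc11.

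Hox genes encode transcription factors that give cells their position along the body axis. The genes of a cluster are switched on in order along the chromosome, and in cells that do not use a cluster the Polycomb proteins hold it silent under a broad domain of H3K27me3, the trimethylation of lysine 27 of histone H3. H3K4me3 marks promoters that are active or poised, and a promoter that carries it together with H3K27me3 is called bivalent. H3K27ac marks active promoters and enhancers, and H3K4me1 marks enhancers and the surroundings of promoters. Blood stem cells are known for their use of genes of the Hoxa and Hoxb clusters.

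The cluster also holds microRNA genes, whose products repress target RNAs through the seed, bases 2 to 8 of the mature strand. Mir196a-2 lies between Hoxc10 and Hoxc9, and Mir615 lies between Hoxc5 and Hoxc4 in the order of gene starts. They are shown because the marked window includes them, and because miR-196a-5p shares its seed with miR-196b-5p, whose gene lies between Hoxa9 and Hoxa10 in the Hoxa cluster. The sequences are from RefSeq (GRCm38.p6), 5′ to 3′, with the seed in capitals.
miR-196a-5p: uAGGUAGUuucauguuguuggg
miR-196b-5p: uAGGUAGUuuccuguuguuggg
miR-615-3p: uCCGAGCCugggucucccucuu
The table also lists miR-196a-5p as a product of Mir196a-1, on chromosome 11. No mature miRNA of another name had the seed of miR-196a-5p and miR-196b-5p, and none shared the seed of miR-615-3p.

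In adult HSCs, H3K27me3 pieces lay along the whole Hoxc window, more sparsely at the Hoxc4 end. The adult list gave 182 pieces (listed peaks) that covered 96873 bp, or 69.2% of the window. In the fetal list no H3K27me3 piece overlapped the window. H3K4me3 was listed at 3 places, the same 3 at both stages, with 3161 bp in the fetal and 3259 bp in the adult list. H3K4me1 was listed as 20 fetal pieces of 8257 bp together and as none in the adult. No H3K27ac was listed at either stage.

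**Figure D1:**
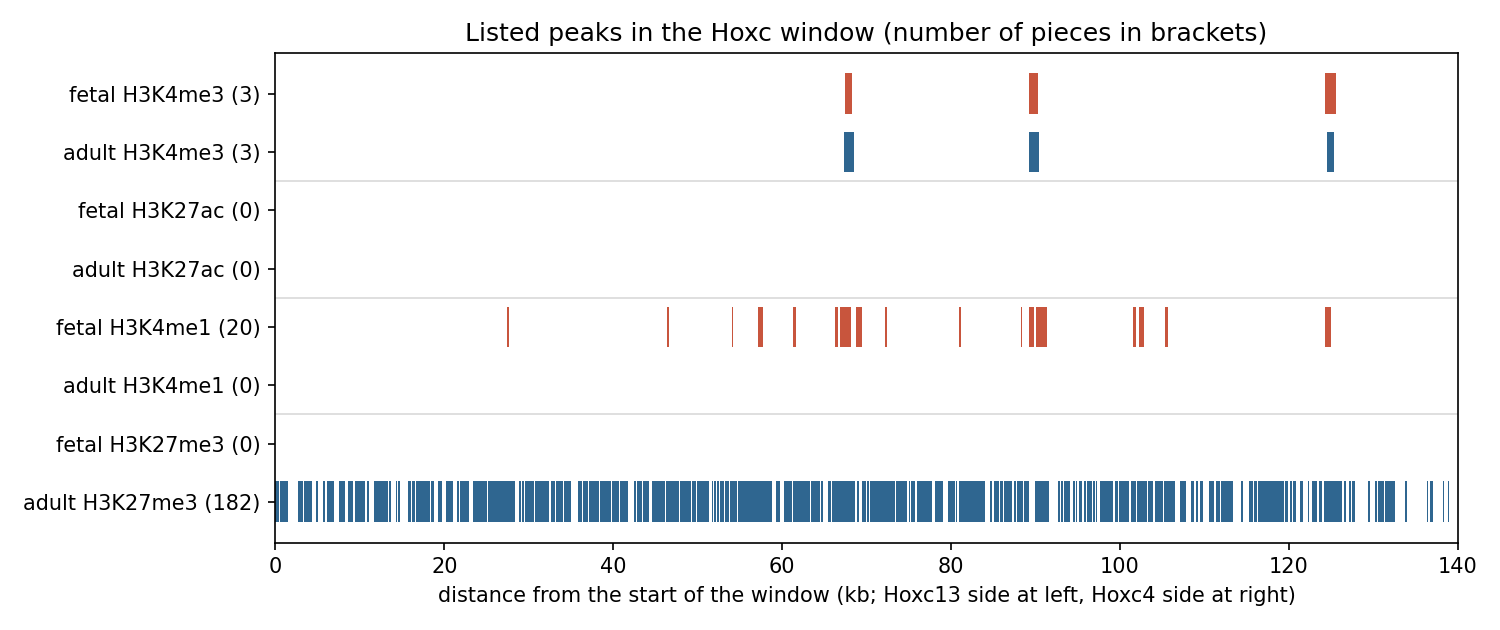
Peaks of the 8 lists in the Hoxc window, as boxes along the distance from the window start in kb, fetal in red and adult in blue, with the number of pieces in brackets. Adult H3K27me3 has 182 pieces along the row, sparser at the Hoxc4 end. The rows of fetal H3K27me3, adult H3K4me1 and both H3K27ac lists are empty, and the 3 H3K4me3 places line up between stages.

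Lists hold peaks with a score of 50 or more, where the score is the authors' own value for a peak, without a named unit. An empty row therefore says that no peak was listed, and not that the mark was absent. Over the whole lists there were 14823 fetal H3K27me3 peaks that covered 38.3 Mb and 22964 adult ones that covered 9.34 Mb.

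The adult H3K27me3 domain was made of narrow pieces set close together. Their widths ran from 153 to 2224 bp, with a median of 400.5 bp, against 278 bp over the whole adult list. The median of the 181 distances between neighbouring pieces was 124 bp, against 333 bp over the list. Of these distances 83 were under 100 bp, or 45.9%, against 26.5% over the list. Distances were not taken in the other Hox windows, so whether close spacing is particular to Hoxc was not tested. The longest distance was 2297 bp, close to the Hoxc4 end of the window. Scores ran from 50.2 to 1088 with a median of 155, against a list median of 91.0, and 137 of the 182 pieces lay above the list median. The window held 0.793% of the pieces of the adult list and 1.05% of its covered length. Widths and scores above the list medians were not particular to Hoxc. In the windows of the other Hox clusters, given below, the median width was 393.5 bp for Hoxd, 410 bp for Hoxb and 459 bp for Hoxa. The median scores there were 158, 157 and 207.

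When pieces within 1 kb were joined, the window held 7 blocks. A block of 88968 bp, from 102742652 to 102831619, was the widest of 7425 adult H3K27me3 blocks. A block of 35107 bp, from 102832718 to 102867824, was the fifth widest. The first block spans the window from 2.65 to 91.6 kb and the second from 92.7 to 127.8 kb. Past them, toward Hoxc4, the 4 last blocks were 3247, 254, 761 and 786 bp wide.

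Coverage was highest in the middle of the window and lowest at the Hoxc4 end. In 28 bins of 5 kb, adult H3K27me3 covered between 17.2% and 89.9% of a bin with a median of 71.5%, and 25 bins were covered by 50% or more. The lowest value was in the bin from 135 to 140 kb and the highest in the bin from 45 to 50 kb. From 20 to 90 kb the covered share was 79.7%, in the 20 kb before that 61.8%, and in the 50 kb after it 57.5%. No bin had fetal coverage.

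**Figure D2:**
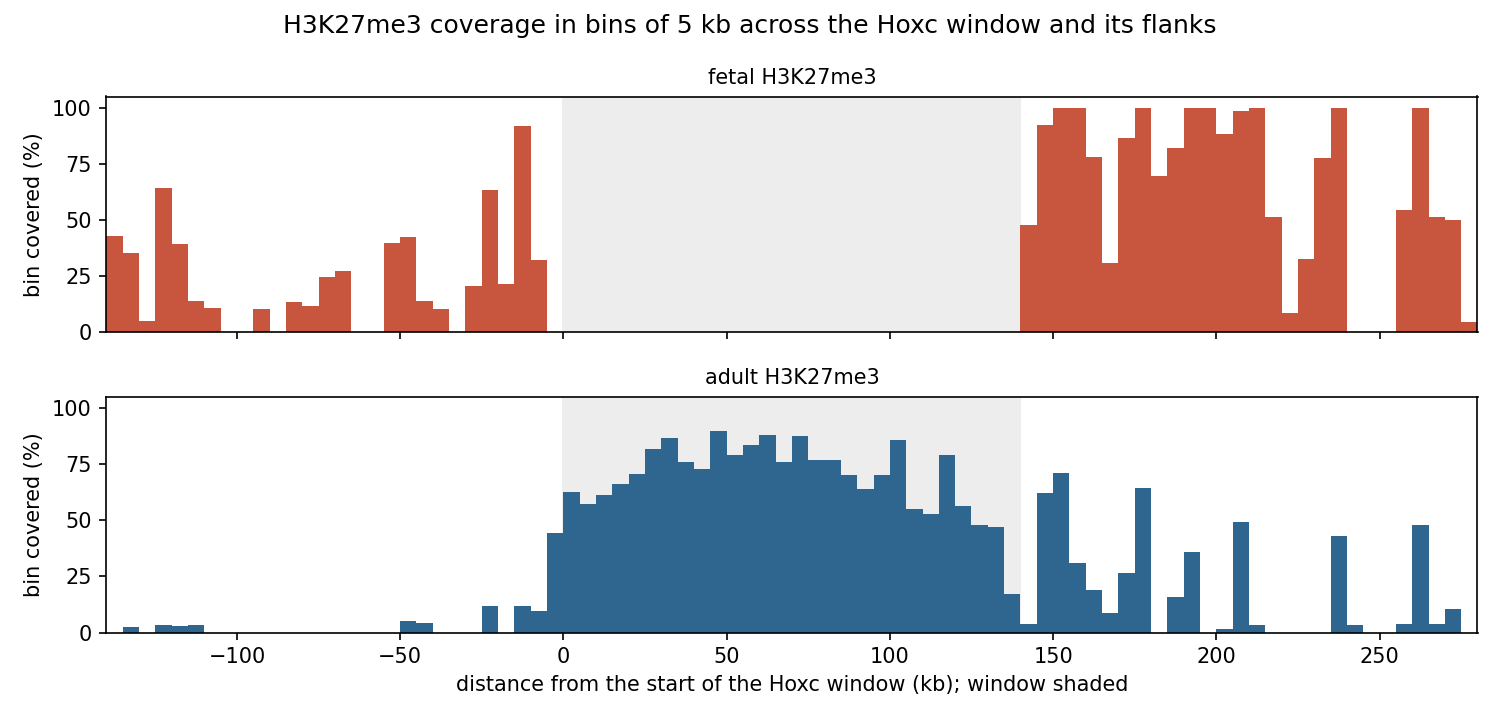
Share of each 5 kb bin covered by H3K27me3 (vertical axis, percent) against the distance from the start of the Hoxc window (kb), fetal above and adult below, with the window shaded and 140 kb on each side. Fetal coverage stops before the shaded window and starts again just past it, while adult coverage lies between 17.2% and 89.9% in every bin of the window.

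The fetal H3K27me3 list had peaks on both sides of the window. On the Hoxc13 side the last one, from 102725409 to 102731601 (6193 bp, score 1265), ended 8.40 kb before the window. On the Hoxc4 side the first one, from 102880638 to 102883033 (2396 bp, score 278), began 0.64 kb past it, and a peak of 18385 bp followed from 102885378. The authors numbered peaks consecutively along each list, and these neighbours on the 2 sides carry the numbers 4863 and 4864. That follows from the numbering, and it cannot show whether a peak was dropped before the list was numbered. The flanks of 140 kb differed between stages in the direction of the whole lists. On the Hoxc13 side fetal pieces covered 22.7% and adult pieces 3.56%, and on the Hoxc4 side 64.5% and 18.0%.

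The stretch without a fetal piece was 149036 bp long, from 102731602 to 102880637. Adult H3K27me3 filled 66.6% of it, with 188 pieces and 99297 bp. The fetal list has 14803 such gaps between neighbouring peaks of a chromosome, and 3 of them, or 0.0203%, held 10 or more adult pieces. The gap over Hoxc ranked first by adult length and by adult pieces, and 3133rd by its own length. The next gap by adult length, on chromosome 6 from 48987237 to 49620366, held 8757 bp in 19 pieces, and the next on chromosome 11, from 95789137 to 95868381, held 4957 bp in 8 pieces.

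**Figure D3:**
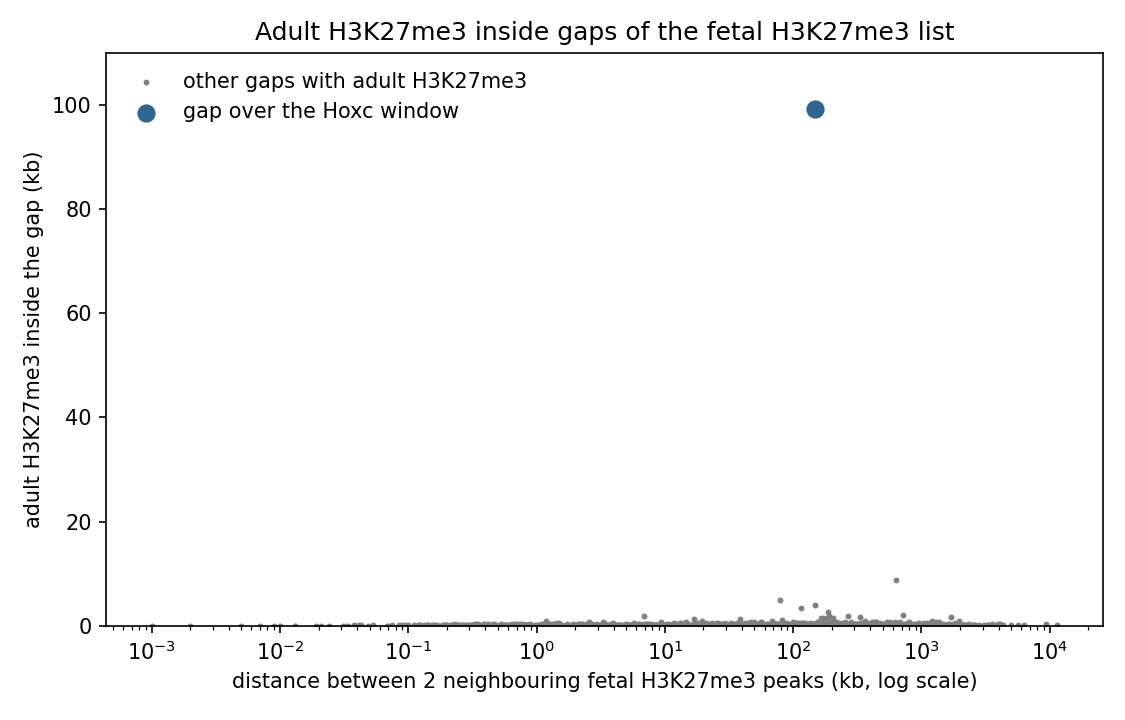
Each point is a gap between 2 neighbouring fetal H3K27me3 peaks that holds at least 1 adult H3K27me3 piece, with the gap length (kb, log scale) against the adult H3K27me3 length inside it (kb). The gap over the Hoxc window lies at 99.3 kb, and no other gap exceeds 8.8 kb.

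None of the 182 adult pieces in the window overlapped a fetal H3K27me3 peak. Over the whole adult list 7.57% of pieces had no fetal overlap, and outside the window the share was 6.83%, or 1556 of 22782. The window thus held 10.5% of the 1738 adult pieces without fetal overlap, and 24.0% of their length. Of adult blocks of at least 10 kb, 3 of 177, or 1.69%, had no fetal H3K27me3 at all. Of these 3, 2 were the blocks in the Hoxc window, and the other, on chromosome 6 from 49161700 to 49175135, was 13436 bp wide.

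Fetal H3K27me3 scores moved with peak width. The median score rose from 71.1 for peaks under 1 kb to 3100 for the 322 peaks of 10 to 20 kb. It was 2839 for 74 peaks of 20 to 30 kb, 2002 for 20 peaks of 30 to 40 kb and 679 for 11 peaks of 40 kb or more. The widest fetal peak, 69880 bp on chromosome 2, had a score of 340, and the next widest, 63715 bp on chromosome 9, a score of 115. The gap over Hoxc is longer than any listed fetal peak. Whether the fall of the score in the widest peaks has a part in the missing fetal call was not tested.

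**Figure D4:**
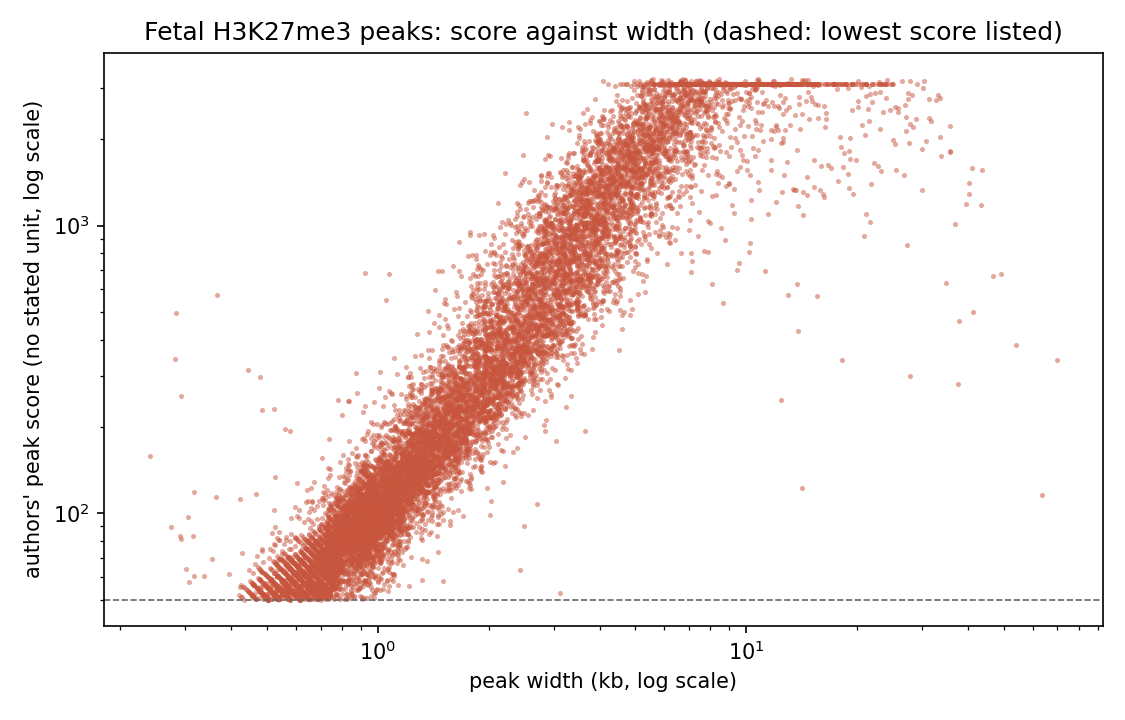
Score against width (both on log axes) for each of the 14823 fetal H3K27me3 peaks, with a dashed line at the lowest score listed, 50. Scores rise with width to a ceiling near 3100 and are lower again in the widest peaks, where the 11 peaks of 40 kb or more have a median of 679.

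The 3 H3K4me3 sites lay 67.9, 89.8 and 125 kb from the start of the window, and they are described in that order. The same sites were called at both stages, which holds for 91% of all fetal and 92.8% of all adult H3K4me3 peaks. None of them had H3K27ac, which was missing at 25.8% of fetal and 24.3% of adult H3K4me3 peaks.

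At the 67.9 kb site the fetal peak ran from 102807511 to 102808231 (721 bp) and the adult peak from 102807304 to 102808468 (1165 bp). The fetal peak lay wholly inside the adult one. Its score of 54.0 was close to the lowest score listed, at percentile 1.23 of the fetal list, while the adult score of 262 was at percentile 24.4 of the adult list. Scores of different lists are not a measure of change.

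At the 89.8 kb site the peaks were of similar width, with 1108 bp in the fetal list (102829266 to 102830373) and 1194 bp in the adult (102829290 to 102830483). They shared 1084 bp, or 89.0% of the length covered by either. The scores were 254 and 185, at percentiles 23.3 and 19.4.

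At the 125 kb site, nearest to Hoxc4, the fetal peak was the wider one. It ran from 102864319 to 102865650 (1332 bp, score 245), and the adult peak from 102864511 to 102865410 (900 bp, score 62.7) lay inside it. Their percentiles were 22.8 and 3.31. All 6 H3K4me3 peaks thus scored at percentile 24.4 or lower of their lists, and all 6 were narrower than the list medians of 1736.5 and 1810 bp. With peaks at or above the list's median score alone, the window held 0 H3K4me3 peaks at either stage.

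All 3 adult H3K4me3 peaks overlapped H3K27me3 and counted as islands within it by the rule of at least 1 bp. This overlap was found for 12.9% of all adult H3K4me3 peaks. Of the 181 distances between H3K27me3 pieces in the window, 6 were 1 kb or longer. A peak of 900 to 1194 bp, the widths of these 3, would thus overlap H3K27me3 nearly anywhere in the window. Of the 3259 bp of adult H3K4me3 in the window, 2546 bp lay in H3K27me3. The adult peak at 67.9 kb was covered over 97.3% of its length, and the H3K27me3 piece that holds most of it, from 102805966 to 102808189 (2224 bp, score 989), was the widest of the 182 pieces. The adult peak at 125 kb lay wholly in the second widest piece, from 102864183 to 102866353 (2171 bp, score 1042). The third widest piece, from 102801328 to 102803286 (1959 bp, score 914), held no H3K4me3. The adult peak at 89.8 kb differed from the other two, with 43.0% of its length in H3K27me3. Of the 2 pieces it touched, one, from 102829931 to 102830427 (497 bp), lay wholly inside it, and the other began near its Hoxc4-side end.

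In the fetal lists 0 of the 3 H3K4me3 peaks overlapped H3K27me3, against 22.3% of all fetal H3K4me3 peaks, which follows from the empty fetal row. Placed on the adult H3K27me3 list, all 3 fetal peaks overlapped it, against 14.2% of fetal H3K4me3 peaks. The dense adult coverage of the window makes such an overlap likely at any position. As listed, and by an overlap of at least 1 bp, the 3 sites were therefore bivalent in the adult and H3K4me3 alone in the fetal lists. When 50% of the adult peak had to be covered, 2 sites remained bivalent, without the one at 89.8 kb. Over the genome, 50 of 2152 adult bivalent peaks, or 2.32%, overlapped fetal H3K4me3 without fetal H3K27me3, and 3 of these 50 were the Hoxc sites. No H3K27ac island was found at either stage, since the window held no H3K27ac peak. Over the genome 5.03% of fetal and 3.55% of adult H3K27ac peaks overlapped H3K27me3 of their stage.

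H3K4me1 was listed in the fetal cells as 20 pieces between 27.4 and 125 kb. Their widths ran from 181 to 1363 bp with a median of 319.5 bp, below the list median of 429 bp, and 7 of the 20 scored above the list median. Of these pieces 5 overlapped a fetal H3K4me3 peak, which was the case for 27.7% of all fetal H3K4me1 peaks. Another 5 lay within 1 kb of one, and the other 10 were more than 2 kb away.

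Some pieces lay around H3K4me3 sites. Around the site at 67.9 kb, 3 pieces between 66 and 70 kb made up 2225 bp, among them the widest of the window, from 102806844 to 102808206 (1363 bp, score 296). Around the site at 89.8 kb, 5 pieces between 88 and 92 kb made up 2029 bp, among them the second widest, from 102829250 to 102829863 (614 bp, score 253). The third widest, from 102808816 to 102809425 (610 bp, score 188), lay beside the first site. A group of 3 pieces from 101.55 to 105.72 kb had no H3K4me3 peak at either stage.

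No adult H3K4me1 piece was listed in the window, and 90.8% of all fetal H3K4me1 peaks had no adult counterpart. The adult H3K4me1 list held 12517 peaks against 92784 fetal ones, so that the empty adult row is near the background. With as many top-ranked fetal as adult H3K4me1 peaks, 0 of the 20 fetal pieces were left. None of the 20 fetal pieces had H3K27ac, which 58.6% of all fetal H3K4me1 peaks also lacked. In position, 19 of the 20 fetal H3K4me1 pieces (95% Clopper-Pearson interval 75.1% to 99.9%, counting error only) overlapped adult H3K27me3, against 5.78% of all fetal H3K4me1 peaks. The piece without it was the one of 614 bp at the 89.8 kb site. Neighbouring pieces are not independent, which the interval ignores. Adult H3K27me3 covered 69.2% of the window, with a median distance of 124 bp between its pieces. An overlap of at least 1 bp is therefore likely for any piece placed there, and the share says little about H3K4me1 itself.

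The Hoxc window was set beside the other Hox clusters, in windows placed by hand from general knowledge of mm9. These were Hoxa on chromosome 6 from 52100001 to 52220000, Hoxb on chromosome 11 from 96050001 to 96240000, and Hoxd on chromosome 2 from 74480001 to 74610000. Values are covered shares of a window, and with 1 list each they were compared without a test.

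For H3K27ac, H3K4me3 and H3K4me1, the covered shares of Hoxc were nearer to those of Hoxd than to those of Hoxa or Hoxb. H3K27ac covered none of the Hoxc and Hoxd windows at either stage. In the Hoxa window it covered 22.8% in the fetal and 20.1% in the adult lists, and in the Hoxb window 3.61% and 4.21%. H3K4me3 covered 2.26% and 2.33% of the Hoxc window, 2.67% and 1.32% of Hoxd, 10.6% and 11.2% of Hoxb, and 29.3% and 26.6% of Hoxa. Fetal H3K4me1 covered 5.90% of Hoxc, 9.99% of Hoxd, 14.1% of Hoxb and 17.8% of Hoxa. Of the 4 windows, Hoxc had the least fetal H3K4me1 and fetal H3K4me3.

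For adult H3K27me3, Hoxc was also nearest to Hoxd, with 69.2% and 64.2% covered, against 28.0% for Hoxb and 26.9% for Hoxa. The fetal list covered 92.01% of Hoxd, 61.7% of Hoxb and 50.02% of Hoxa, and none of Hoxc. The ratio of fetal to adult covered length was 1.43 for Hoxd, 2.201 for Hoxb and 1.86 for Hoxa, and 4.10 over the whole lists. Of the adult pieces, 128 of 128 in Hoxd, 90 of 91 in Hoxb and 45 of 45 in Hoxa overlapped a fetal piece, against 0 of 182 in Hoxc.

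**Figure D5:**
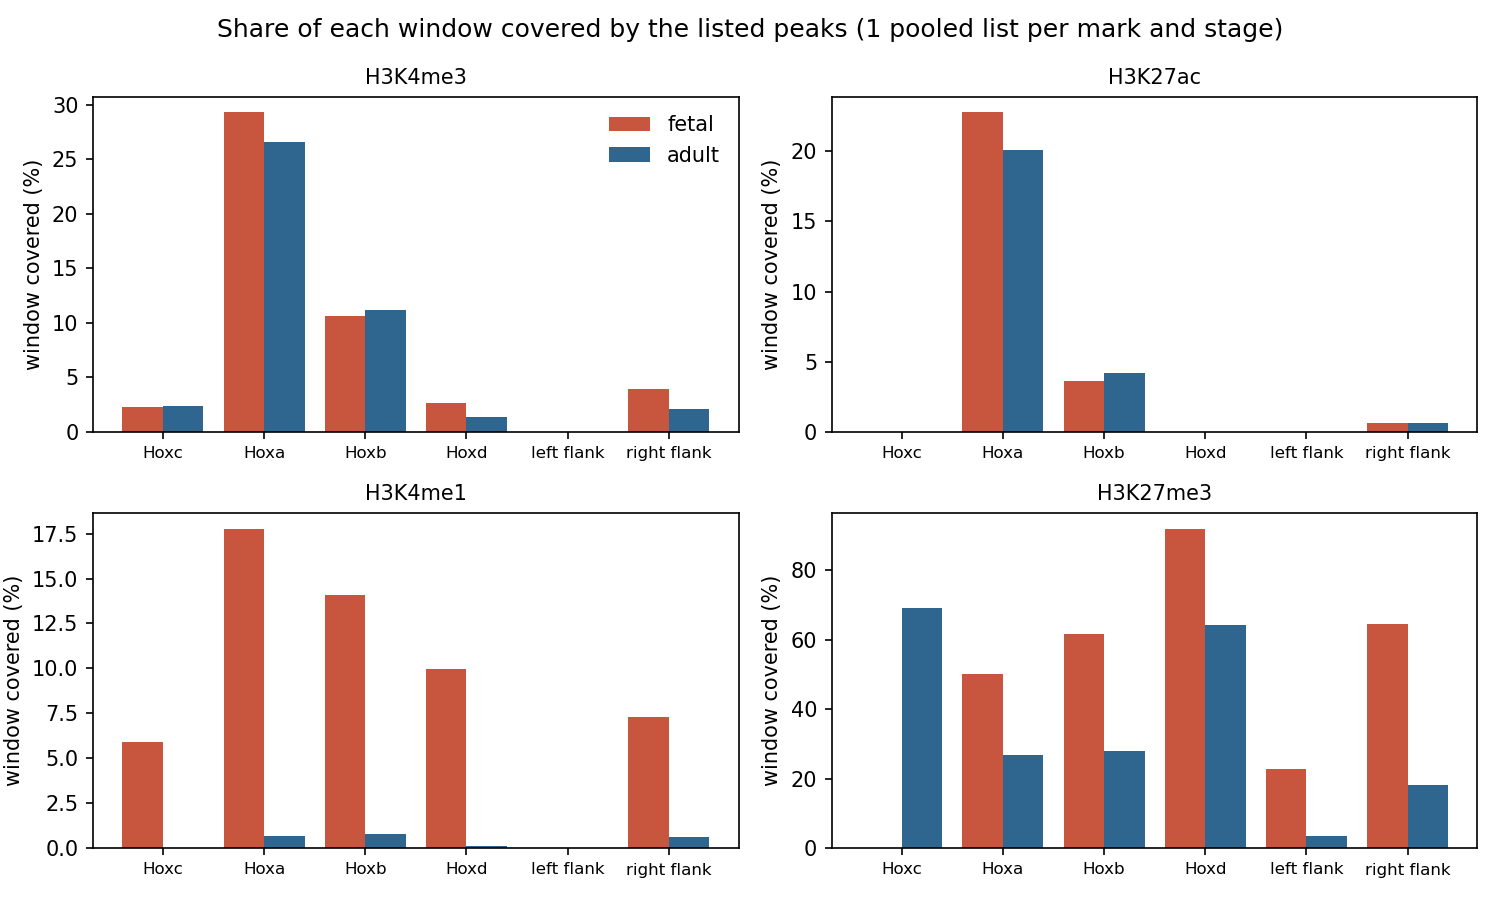
Percent of each window covered by the listed peaks of each mark, for the 4 Hox windows and the 140 kb on each side of Hoxc, fetal in red and adult in blue, 1 list per bar and no error. In the H3K27me3 panel Hoxc is the window with an adult bar (69.2%) and no fetal bar, while fetal exceeds adult in each of the other windows.

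The window was also ranked among 8038 tiles of 140 kb that hold an H3K4me3 peak of either stage and do not overlap it. No tile had as much adult H3K27me3 as the 96873 bp of the Hoxc window (0% of tiles), and the highest, which covers the Hoxd cluster, had 83398 bp. All 45 tiles with at least 20 kb of adult H3K27me3 had more fetal than adult H3K27me3, the lowest with 30788 bp of fetal H3K27me3. Adult H3K27me3 was the longer of the 2 in 3 of 402 tiles with at least 5 kb of adult coverage, or 0.746%. In covered H3K4me3 length the window lay near the middle of these tiles, since 46% of them had at least as much in the fetal and 45.7% in the adult list. The tiles were kept for holding H3K4me3, so these shares do not describe the whole genome. For fetal H3K4me1 this share was 26.6%. Of the marks that the window lacked, fetal H3K27me3 and adult H3K4me1 were also missing from most tiles, and H3K27ac from a minority. Of the tiles, 51.2% had no fetal H3K27me3 and 55.3% no adult H3K4me1. H3K27ac was missing from 16.9% of tiles in the fetal and 20.2% in the adult list.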

How the data were processed

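Reads were aligned with Bowtie2 2.2.2 to mm9, per the submitters' processing notes. The deposited lists name their peaks MACS_peak, which points to that caller. The caller's version, settings and control are not given in the sources used here. The 8 deposited lists give each peak's interval and the authors' score. The 20 samples form 10 groups, and the 4 input samples, single replicates and coverage were not analysed here. The depth of the libraries is unknown. Peaks on unplaced contigs were set aside. Covered length was clipped to the window, and overlap meant at least 1 bp. Every H3K4me3 and H3K27ac peak of the window is named, and the 3 widest H3K27me3 and H3K4me1 pieces of a list. Members, windows and lists were chosen with earlier results of these data known. Gaps, blocks and the relation of score to width were chosen after seeing the data. Alternatives kept better-scoring peaks, equalled peak numbers, merged peaks within 1 kb, or changed the window, overlap or tiles. Interval code was tested on simulated data, with a largest error of 0 bp in 8 simulated lists. Python 3.11.15, numpy 2.4.6, pandas 2.3.3, scipy 1.17.1 and matplotlib 3.10.9 were used.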

Additional observations from a re-analysis of the deposited data

How the results depend on the processing

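A length, count or rank was taken as moved when it changed by more than 1.5-fold or from or to 0. With peaks at or above the median score of their list, both stages had 0 H3K4me3 pieces and 0 bp in the window, and so 0 adult islands within H3K27me3, while fetal H3K4me1 had 7 pieces and 4677 bp. With equal numbers of top-ranked peaks fetal H3K4me1 had 0 pieces and 0 bp. The pieces that were lost scored below the cut of the setting. For fetal H3K4me1, equal numbers kept 12517 of 92784 peaks. Merging within 1 kb left 7 adult H3K27me3 and 12 fetal H3K4me1 pieces, and widening the window by 10 kb on each side took in 3 fetal H3K27me3 pieces with 8620 bp, all by construction. The other 90 values for the Hoxc window did not move. Adult H3K27me3 covered 87386 bp with better-scoring peaks, 91246 bp with equal numbers and 130598 bp after merging. The fetal list gave 0 bp each time, which was fixed in advance, since dropping or merging peaks cannot fill an empty window. The same holds under these settings for the other marks with 0 bp in the window, so their unmoved values do not show stability. The window kept rank 1 in adult H3K27me3 under each tile setting, and the gap kept rank 1 under the 3 alternatives added after the data had been seen. For the other windows and ranks, 23 of 135 values moved. No paired analysis was possible because the deposited lists combine the replicates, for which reason none could be left out.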

Other observations

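Past the Hoxc4 end of the window, the flank of 140 kb held an H3K4me3 site with H3K27ac at both stages, 112.7 kb beyond the window. The fetal H3K4me3 peak ran from 102992704 to 102994421 (1718 bp, score 2038) and the adult peak from 102992740 to 102994468 (1729 bp, score 1005). The H3K27ac peaks on it were 851 bp (score 62.0) and 862 bp (score 51.6) wide, and neither stage had H3K27me3 under the H3K4me3 peak. A second site, from 102999174 to 103000178 in the fetal and from 102999025 to 103000229 in the adult list, had H3K27me3 at both stages, over 1005 bp of the fetal and 380 bp of the adult H3K4me3 peak. In all, the flank past Hoxc4 held 5 fetal and 2 adult H3K4me3 peaks. The other fetal peaks, 127.6, 132.6 and 133.8 kb beyond the window, had no adult H3K4me3 peak. Fetal H3K27me3 lay over 0, 232 and 891 bp of them. The flank on the Hoxc13 side held no H3K4me3, H3K27ac or H3K4me1 peak at either stage.

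Outside the Hoxc window, among tiles with at least 5 kb of adult H3K27me3, the 3 with more adult than fetal coverage were on chromosome 6 from 49140001 (8757 bp adult, 0 bp fetal), on chromosome 10 from 45080001 (5650 and 2866 bp) and on chromosome 11 from 95760001 (13103 and 10570 bp).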
